A study of Mus musculus with 8 samples.

Results

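Transcripts that mark hepatocytes were present in every RNA-seq library of sorted mouse Kupffer cells. They are described here through 40 genes for plasma proteins and metabolic enzymes of the hepatocyte, taken by gene symbol from the 56691 genes of the deposited table. All 40 were found, each under 1 identifier, and all had enough counts to be tested. Their levels followed one another from library to library: 38 of the 40 were highest in the same library, WT 3, and 34 were lowest in the same library, KO 2. Transferrin (Trf) did not follow the others. The sum of the 5 periportal enzymes among the 40 varied more against albumin (Alb) than that of the 5 pericentral ones. Longer lists of zonation genes did not have this order. Most of their pericentral sum came from Glul and Oat, which did not have the library order of Alb.

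Hepatocytes, the parenchymal cells of the liver, secrete most proteins of the blood plasma, and albumin is the most abundant of these. They are divided by position along the blood stream. Periportal cells, where blood enters the lobule, carry most gluconeogenesis and urea synthesis, and pericentral cells, where it leaves, carry most cytochrome P450 metabolism. Kupffer cells are macrophages that line the liver sinusoids and sit next to hepatocytes, and RNA of lysed or attached hepatocytes can enter a preparation of liver macrophages.

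Of the 8 samples, 4 came from wild-type mice (WT) and 4 from mice lacking Vsig4, a complement receptor of tissue macrophages (Vsig4-/-, KO). Mice of both genotypes had been injected with B16F10 cells, a mouse melanoma line, and livers with metastases were taken 7 days later. After enzymatic digestion for 20 min and removal of red cells, the live fraction (no DAPI uptake) positive for CD45 and Tim-4 was sorted. The sources used here do not give strain, sex, age, how the Vsig4 allele was made or whether each library is from a separate animal, so p-values measure the spread between libraries, which may be in part technical. No group without tumour and no unsorted liver was analysed here.

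Total counts ran from 15264043 to 19513844 per library. Vsig4 counts lay between 22498 and 46735 in WT and between 2 and 9 in KO, so the targeted gene matched the labels. The cells carried Kupffer markers, whose 16 genes summed to 28297 to 51389 CPM (read counts relative to the TMM-scaled library size) in WT and 10834 to 33194 CPM in KO. Vsig4 is among the 16, and without it they summed to 26905 to 48499 CPM in WT and 10834 to 33193 CPM in KO. The 10 melanoma markers summed to 567 to 6460 CPM in WT and 2864 to 14288 CPM in KO, and 11 sinusoidal endothelial markers to 804 to 1685 CPM in WT and 343 to 1114 CPM in KO. The 7 cholangiocyte markers stayed between 4.03 and 11.5 CPM. All 8 libraries therefore held transcripts that mark other cell types, and which cells made them was not tested. In bulk RNA, more cells of a type and more RNA per cell cannot be told apart.

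Many of the 40 genes are transcribed in hepatocytes through the factor HNF1, and the fibrinogen genes are also known targets of interleukin-6 signalling. The promoters of Alb and of the 3 fibrinogen genes are shown because the constancy of the fibrinogen chains and their spread against Alb are described below. Each is the stretch of 150 bases before the start of the gene on its own strand, from RefSeq on GRCm38.p6. Capitals mark GTTAAT, the core of the HNF1 site, or its reverse complement ATTAAC, and CTGGGA, the core of the interleukin-6 response element.
Alb, chr5:90460720-90460869, plus strand: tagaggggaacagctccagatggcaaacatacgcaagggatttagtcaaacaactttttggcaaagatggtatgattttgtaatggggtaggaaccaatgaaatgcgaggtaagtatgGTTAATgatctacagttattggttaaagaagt
Fga, chr3:83026003-83026152, plus strand: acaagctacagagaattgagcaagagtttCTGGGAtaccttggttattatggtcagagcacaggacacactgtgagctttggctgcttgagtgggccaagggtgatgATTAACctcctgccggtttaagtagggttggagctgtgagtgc
Fgb, chr3:83049864-83050013, minus strand: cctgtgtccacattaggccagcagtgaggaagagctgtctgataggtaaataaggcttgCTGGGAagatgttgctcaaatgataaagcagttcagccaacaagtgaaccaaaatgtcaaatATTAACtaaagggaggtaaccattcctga
Fgg, chr3:83007574-83007723, plus strand: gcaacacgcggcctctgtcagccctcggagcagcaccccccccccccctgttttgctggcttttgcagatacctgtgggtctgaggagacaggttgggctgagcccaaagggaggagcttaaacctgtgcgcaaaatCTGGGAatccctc

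The Alb stretch held GTTAAT and no CTGGGA, the Fga and Fgb stretches held a match to each, and the Fgg stretch held CTGGGA alone. Of the 31 members with an entry in the RefSeq table, 10 had GTTAAT on either strand in this window (Alb, Fabp1, Fga, Fgb, Gc, Itih1, Serpina1a, Serpina1b, Serpina1c and Vtn), which is 32.3% against 3.71% of all 32851 promoters. CTGGGA, searched on both strands, was present in 9 of the 31 (Apoa1, Ass1, Cyp3a11, Fga, Fgb, Fgg, Gc, Itih1 and Itih4), or 29.0% against 17.7% of all promoters. For both motifs a member counted if any of its promoters matched, while the share of all promoters counts each promoter singly, which can favour the members. The 2 motifs do not overlap in these letters, and a match is a description of the sequence and not a site of binding.

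Alb (ENSMUSG00000029368, chromosome 5, 90608756 to 90624461, plus strand, positions as deposited with no build named) was the highest of the 40 genes per length after Trf, with a mean of 196 FPKM over the 8 libraries. It had 403, 302, 1348 and 404 CPM in WT 1 to 4 against 168, 110, 449 and 446 CPM in KO 1 to 4. WT 3 stood far above the rest and KO 2 was lowest, a range of 12.3-fold, and the genotypes overlapped. In counts Alb made up 0.0277% to 0.138% of a WT library and 0.0110% to 0.0478% of a KO library. Alb averaged 614 ± 491 CPM in WT against 293 ± 180 CPM in KO (SD, n = 4), a difference smaller than the SD within WT.

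Without Trf, the summed level of the remaining 39 genes was 974, 795, 3530 and 1251 CPM for WT 1 to 4 against 621, 380, 1409 and 1469 CPM for KO 1 to 4. The order of the libraries was close to that of Alb, with WT 3 again on its own at the top and a range of 9.30-fold. Together they took 0.0381% to 0.361% of all counts. WT 3 was also the highest library in 4 of 9 marker lists of other cell types. The erythroid markers summed to 31.6 CPM in WT 3 against 4.72 to 11.6 CPM in the other libraries, the stellate cell markers to 359 against 96.9 to 219.5 CPM, the cholangiocyte markers to 11.5 against 4.03 to 6.97 CPM and the B cell markers to 174 against 88.4 to 136 CPM. By contrast, KO 3 had the highest melanoma sum and the lowest Kupffer sum. The part of these differences in the hepatocyte sums was not tested.

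**Figure D1:**
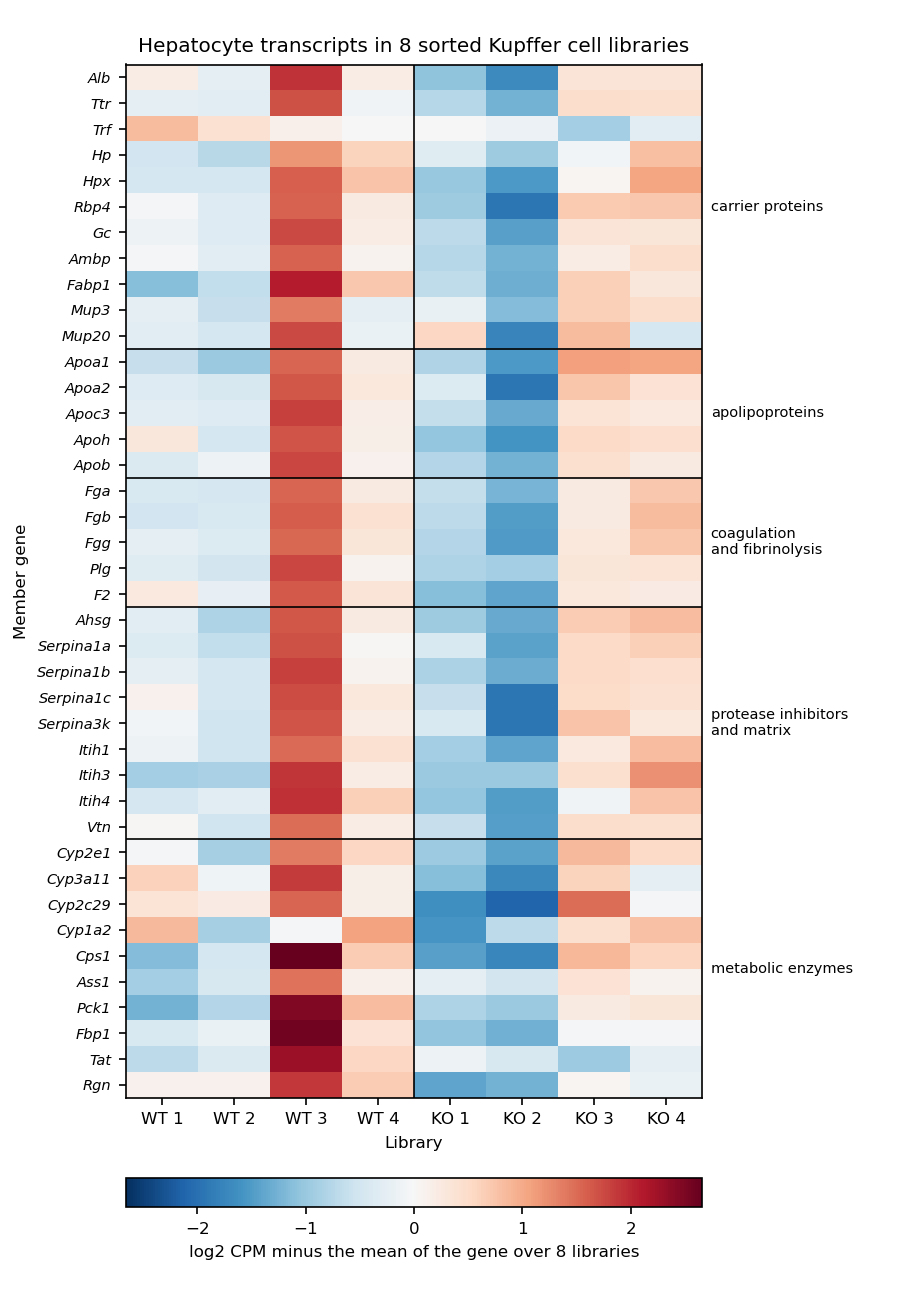
Heat map of the 40 genes (rows, grouped by role) in the 8 libraries (columns), coloured by log2 CPM minus the mean of the gene over the 8 libraries, red above and blue below it. The WT 3 column is red and the KO 2 column blue in nearly all rows, except that Trf runs from 1765 CPM in WT 1 to 530 CPM in KO 3 and Cyp1a2 is near its mean in WT 3.

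Transferrin, the iron carrier of plasma, was the highest member per length and the one that moved apart. Trf (ENSMUSG00000032554, chromosome 9) had 1765, 1302, 1085 and 987 CPM in WT 1 to 4 against 975, 886, 530 and 808 CPM in KO 1 to 4, a mean of 309 FPKM over all libraries. Its maximum was not in WT 3 but in WT 1, and every KO library lay below every WT library. Its level ran with the summed Kupffer markers, which were highest in WT 1 (51389 CPM) and lowest in KO 3 (10834 CPM), as for Trf. The sinusoidal endothelial markers had their highest sum in WT 1 (1685 CPM) and their lowest in KO 3 (343 CPM) as well. Per length, Trf was below Alb in WT 3 (334 and 589 FPKM) and in KO 3 (170 and 204 FPKM) and above it in the other 6 libraries. Trf had 805 counts per 1000 Alb counts in WT 3 and 8080 in KO 2. Over the 8 libraries the SD of log2 CPM was 0.51 for Trf against 1.07 for Alb, while the SD of the log2 ratio of Trf to Alb was 1.16.

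Among the other carriers, the vitamin D binding protein Gc was the closest to Alb. Gc had 75.7, 87.0, 84.3 and 94.8 counts per 1000 Alb counts in WT 1 to 4 against 122, 112, 94.8 and 93.8 in KO 1 to 4. They lay within 1.61-fold of each other, where Gc itself ranged 9.23-fold in CPM. The retinol carrier Rbp4 ran from 18.5 to 31.3 and Ambp, the precursor of alpha-1-microglobulin and bikunin, from 33.9 to 59.1 per 1000 Alb counts. Ttr, transthyretin, the carrier of thyroid hormone, had 36.2 to 47.1 in WT and 51.7 to 65.6 in KO. The KO libraries thus lay above the WT libraries for Ttr, as for 14.1% of all tested genes, although its level in CPM overlapped between genotypes.

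Haptoglobin and hemopexin, which bind free haemoglobin and haem and are made in greater amounts in the acute phase response, were less constant. Hp had 67.8, 77.4, 64.4 and 144 counts per 1000 Alb counts in WT 1 to 4 against 183, 183, 82.4 and 151 in KO 1 to 4. Hpx had 80.7, 108, 99.9 and 188 in WT and 132, 142, 104 and 206 in KO. WT 4 was the highest WT library for both genes and KO 3 the lowest KO library for both. The cytosolic fatty acid carrier Fabp1 was lowest in WT 1, at 10.1, and between 18.6 and 36.1 per 1000 Alb counts in the other libraries.

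Of the major urinary proteins, pheromone carriers made in the liver, Mup3 did not overlap between genotypes when counted against Alb and Mup20 did. Mup3 (ENSMUSG00000066154, chromosome 4) had 91.6, 95.6, 85.3 and 91.1 counts per 1000 Alb counts in WT 1 to 4 against 227, 182, 151 and 136 in KO 1 to 4. The WT libraries hardly differed and all KO libraries lay above them, at 174 ± 40.3 against 90.9 ± 4.25 (SD, n = 4). Of all tested genes, 14.1% had all KO libraries above WT per Alb count. Mup3 was not called per Alb count (edgeR adjusted p = 0.30). With Apoa1 in place of Alb its log2 difference was 0.013. In CPM the same gene overlapped, with 28.9 to 115 in WT and 19.9 to 67.9 in KO. Mup20, the pheromone darcin, had 33.7, 39.8, 41.3 and 36.4 per 1000 Alb counts in WT, again within a narrow range, and 143, 44.7, 65.6 and 26.9 in KO. Mup genes are near-identical copies, and how reads shared between them were counted is not given in the sources used here, so the level of each copy is uncertain.

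The apolipoproteins, which package plasma lipids, held both a very constant gene and an inconstant one. Apoh, beta-2-glycoprotein I, had 31.4, 24.7, 24.2 and 28.3 counts per 1000 Alb counts in WT 1 to 4 against 30.1, 31.2, 32.4 and 31.5 in KO 1 to 4. With a range of 1.34-fold it had the smallest spread against Alb of all members, and its CPM still ranged 9.56-fold. Apoa1, the main protein of high density lipoprotein, had 55.9, 58.0, 74.3 and 101 in WT and 117, 109, 163 and 160 in KO. All KO libraries lay above all WT libraries for Apoa1, as for 14.1% of all tested genes, at 137 ± 28.0 against 72.3 ± 20.7 (SD, n = 4). Apoa2, its partner in the particle, ran from 26.7 to 63.5, Apoc3, an inhibitor of lipoprotein lipase, from 6.88 to 12.9, and Apob, the scaffold of very low density lipoprotein, from 33.4 to 66.6 per 1000 Alb counts. These 3 genes overlapped between genotypes.

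The fibrinogen chains, whose 3 products are assembled in equal numbers into the clotting protein, kept their ratios to each other better than to Alb. Fgb had 0.990 to 1.31 and Fgg 0.692 to 0.931 counts per Fga count over the 8 libraries, which are SDs of 0.13 and 0.14 on the log2 scale. Against Alb the 3 chains had SDs of 0.39 (Fga), 0.40 (Fgb) and 0.31 (Fgg). Fga had 66.4, 86.3, 76.3 and 103 counts per 1000 Alb counts in WT 1 to 4 against 135, 136, 92.5 and 129 in KO 1 to 4, and KO 3 was the only KO library within the WT range. The promoters printed above are those of these chains.

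The other clotting and fibrinolysis genes were F2 and Plg. Prothrombin, F2, had 24.0, 22.9, 18.6 and 25.1 counts per 1000 Alb counts in WT 1 to 4 against 21.8, 27.9, 21.9 and 21.0 in KO 1 to 4. It was, after Apoh, the member most constant against Alb. Plg, plasminogen, had 20.5 to 27.0 in WT and 28.6 to 50.3 in KO, and KO 2, where Alb was lowest, had the highest value.

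Protease inhibitors and matrix proteins had a narrower spread against Alb than in CPM in all 9 members. Their median SD of the log2 ratio was 0.36, and Itih3 had the largest (0.64). Serpina1c, of the alpha-1-antitrypsin family, had 51.9, 46.1, 47.1 and 57.6 counts per 1000 Alb counts in WT 1 to 4 against 74.4, 46.6, 59.6 and 56.8 in KO 1 to 4. It was among the 4 most constant members. Its near-identical copies Serpina1a and Serpina1b had 18.0 to 23.5 and 42.9 to 54.2 in WT, and 29.3 to 42.0 and 62.9 to 75.9 in KO, with KO above WT in both. Reads of these copies may have been split between them, so each level is uncertain. Serpina3k, a serpin of the antichymotrypsin family, was the highest of the group per length (mean of 36.0 FPKM) and ran from 135 to 266 per 1000 Alb counts. Ahsg, fetuin-A, an inhibitor of mineral deposition, had 59.3 to 91.9 in WT and 98.1 to 126 in KO, and Vtn, the adhesion protein vitronectin, 31.1 to 42.3 in WT and 44.7 to 58.2 in KO.

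The inter-alpha-trypsin inhibitor heavy chains, which stabilise hyaluronan in the matrix, differed among themselves. Itih1 ran from 8.59 to 16.0 and Itih4, an acute phase protein, from 20.6 to 43.6 counts per 1000 Alb counts, and both overlapped between genotypes. Itih3 had 6.53, 8.93, 13.6 and 13.99 in WT 1 to 4 against 14.9, 22.8, 14.8 and 25.5 in KO 1 to 4. Its lowest KO library, KO 3, lay just above its highest WT library, WT 4.

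Over the members as a whole, the level against Alb varied far less than the level in CPM. For the 38 members other than Alb with a mean count of at least 20, the median SD over the 8 libraries was 0.40 for the log2 ratio to Alb and 1.003 for log2 CPM. For all 14214 genes with such counts the order was the opposite, 1.13 for the ratio and 0.34 for CPM. The spread was narrower against Alb than in CPM in 36 of the 38 members (94.7%) and in 2.81% of all genes. The 2 exceptions were Trf and Ass1, and the remaining member, Cyp1a2, had a mean count under 20. Members shared both the library and the Alb count in the denominator, so their ratios are not independent of each other.

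Genes with an SD of the log2 ratio to Alb below 0.5 were rare, 87 of the 14214 (0.612%), and 26 of them were members, which is 68.4% of the 38 members. A further 25 stood in the other hepatocyte lists examined, and 0 in the lists of Kupffer, melanoma, endothelial, stellate, cholangiocyte, neutrophil, T, B or erythroid markers. The rest stood in none of the lists. The lists of other cell types hold 5 to 16 genes each, so at a share of 0.612% a 0 there shows little. The non-members closest to Alb, chosen after their values were seen, were the coagulation factor F12 (SD 0.15), Serpina1d (0.20), a further alpha-1-antitrypsin copy, and the bile acid CoA ligase Slc27a5 (0.21).

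**Figure D2:**
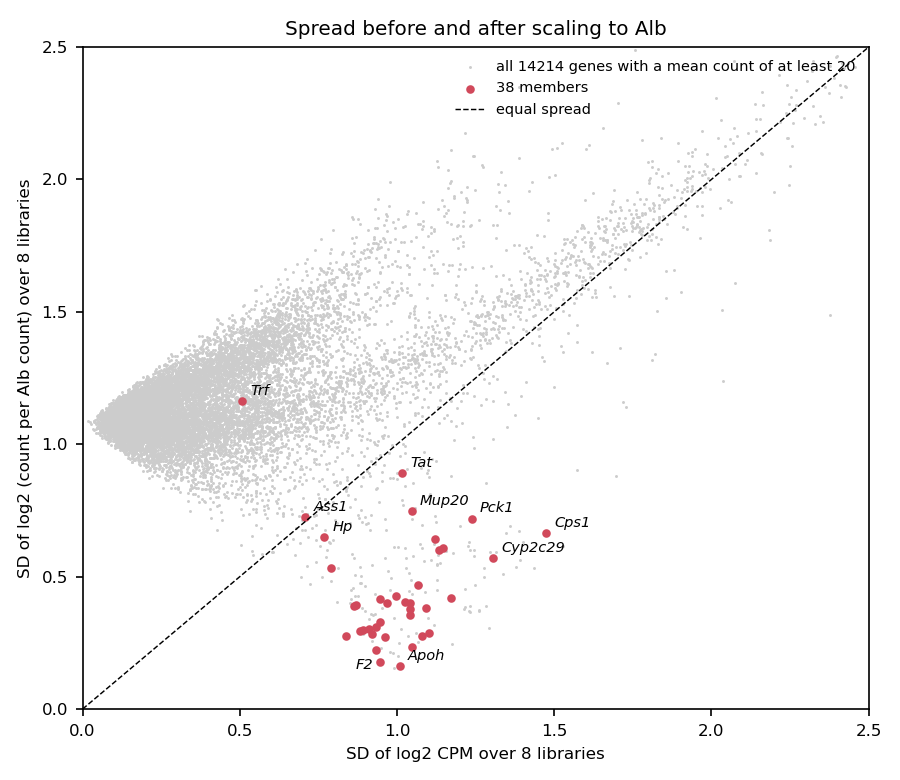
SD over the 8 libraries of the log2 ratio to Alb (vertical axis) against the SD of log2 CPM (horizontal axis), both in log2 units, for 38 members and for all 14214 genes with a mean count of at least 20 (axes end at 2.5, and the dashed line marks equal spread). Members lie to the right and low (medians 1.003 and 0.40), all genes lie to the left and high (0.34 and 1.13), and Trf lies among the genes that are no members.

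The ratios were, however, not constant to within counting error. Counting alone would give the 38 members a median SD of 0.099 on the log2 scale against the 0.40 seen. Set against Alb counts, a member's chi-square per degree of freedom, which is near 1 when a ratio is constant, was above 1 in 38 of 38, from 1.48 for Apoc3 through a median of 14.3 to 3383 for Trf. Only Apoc3, Apoh and F2 had an SD under 1.5 times that of counting. PCR copies are not told apart in these counts, so the counting SD is a lower limit.

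**Figure D3:**
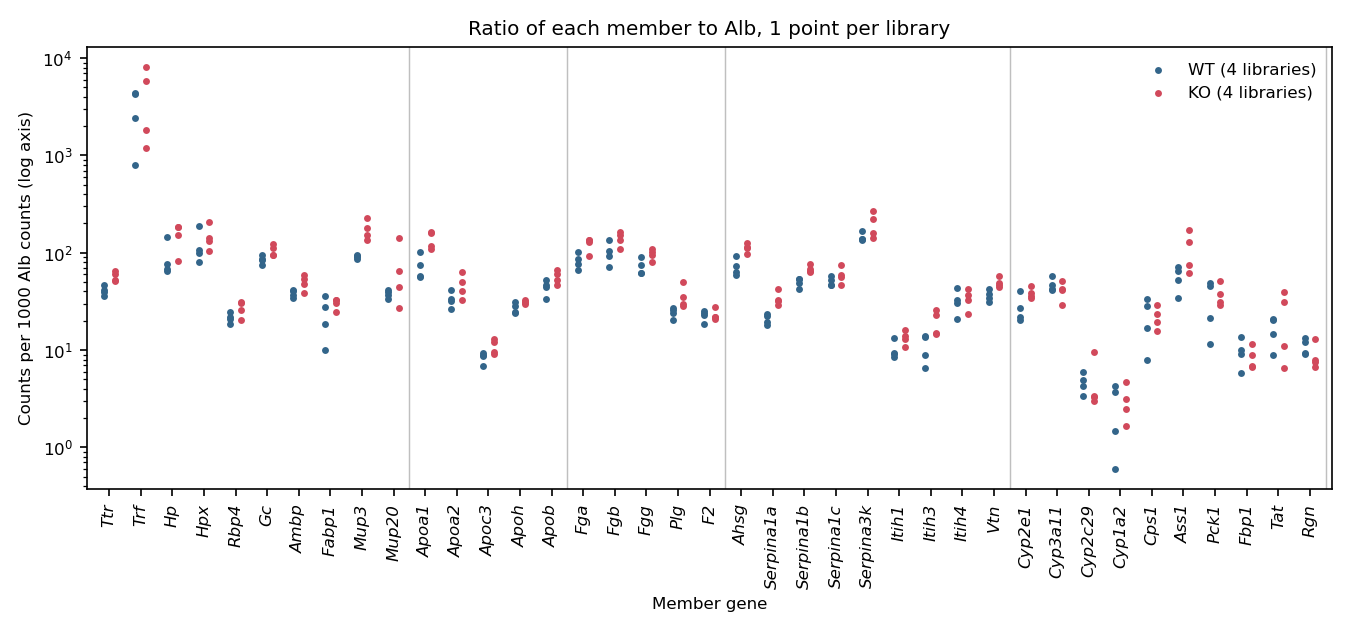
Counts per 1000 Alb counts on a log axis for each of the 39 members other than Alb, with 1 point per library (WT left and KO right of each gene) and grey lines between the roles. Apoh stays between 24.2 and 32.4, whereas Trf runs from 805 in WT 3 to 8080 in KO 2.

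The extremes of these ratios fell more often in some libraries than in others. WT 1 had the lowest ratio to Alb for 20 of the 39 members other than Alb and WT 3 for 10. The highest ratio was in KO 2 for 13, in KO 1 for 9, in KO 4 for 7 and in the other 5 libraries for the rest. The 38 members without Alb and Trf summed to 1415, 1633, 1619 and 2094 counts per 1000 Alb counts in WT 1 to 4 against 2689, 2463, 2136 and 2293 in KO 1 to 4. Over all tested genes the median log2 difference per Alb count, KO minus WT, was 1.12. For the sum of the 38 members all 4 KO libraries lay above all 4 WT libraries, KO 3 by the smallest margin over WT 4. By group the same was seen for the apolipoproteins (154 to 226 in WT and 252 to 308 in KO) and for the inhibitors and matrix proteins (391 to 509 and 534 to 668), while the clotting genes (244 to 379 and 331 to 454), the enzymes (172 to 283 and 214 to 393) and the carriers without Trf but with Alb itself (1454 to 1696 and 1651 to 1981) overlapped.

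Among single genes the KO libraries lay wholly above the WT libraries per Alb count in 9 of the 39 members and below in 0, where 14.1% of all tested genes lay above and 0.0126% below. The 9 were Apoa1, Ttr, Ahsg, Serpina1a, Serpina1b, Mup3, Itih3, Vtn and Plg. edgeR's quasi-likelihood test with log Alb counts as the offset, fitted and adjusted over all 15870 tested genes, called 0 of the 39 (lowest adjusted p = 0.288; 0 at an unadjusted p under 0.05), where 0.0378% of all genes were called higher and 0.0126% lower. With the replicate number as a block it was also 0 of 39, where 18.0% of all genes were called higher and 0.0378% lower. The median difference was 0.41 on the log2 scale, with 36 members at higher and 3 (Cyp3a11, Fbp1 and Rgn) at lower values, against a median of 1.12 over all tested genes. The median SE of a member was 0.72, so a difference of the size of Mup3 (0.94 ± 0.75, SE) or Apoa1 (0.93 ± 0.74) was not detectable with 4 libraries a genotype in this fit, which estimates the spread from all genes. The direction depended on the reference, since with Apoa1 in place of Alb the median was -0.49.

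The metabolic enzymes were split by liver zone. Of these, the periportal members were Cps1 and Ass1 of the urea cycle, Pck1 and Fbp1 of gluconeogenesis and Tat of tyrosine breakdown. Their counts summed to 68.5, 126, 165 and 178 per 1000 Alb counts in WT 1 to 4 against 223, 291, 147 and 135 in KO 1 to 4. The pericentral members were the P450 enzymes Cyp2e1, Cyp3a11, Cyp2c29 and Cyp1a2 and the calcium-binding lactonase Rgn, and they summed to 103, 86.7, 76.3 and 105 in WT and to 88.2, 102, 117 and 78.8 in KO. The pericentral sum was thus nearly constant against Alb, within 1.54-fold, while the periportal sum ranged 4.25-fold, lowest in WT 1 and highest in KO 2. On the log2 scale the SDs of these sums were 0.22 and 0.62. The longer lists had the opposite order. The 12 other periportal genes summed to 142 to 390 counts per 1000 Alb counts, a range of 2.76-fold. The 15 other pericentral genes summed to 733 to 9812, a range of 13.4-fold, where the sum of all tested genes ranged 12.5-fold. Most of that pericentral sum came from Glul and Oat, described below, which did not have the library order of Alb.

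Within the periportal genes the libraries did not keep one order. Cps1, the first enzyme of the urea cycle, had 7.94, 16.9, 33.2 and 28.1 counts per 1000 Alb counts in WT 1 to 4 against 15.5, 19.6, 29.3 and 23.5 in KO 1 to 4. Ass1, argininosuccinate synthase, had 34.2, 64.3, 51.9 and 70.6 in WT and 130, 169, 75.2 and 62.2 in KO. Cps1 was thus highest in WT 3 and Ass1 in KO 2, and WT 1 was lowest for both. Ass1 is known to be transcribed in many cell types, and its CPM ranged only 5.06-fold against 20.9-fold for Cps1.

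The gluconeogenic genes and Tat followed. Pck1 had 11.6, 21.6, 45.6 and 49.0 counts per 1000 Alb counts in WT 1 to 4 against 37.7, 51.2, 29.2 and 31.5 in KO 1 to 4. Fbp1 had 5.82, 9.11, 13.5 and 10.02 in WT and 8.92, 11.6, 6.65 and 6.82 in KO. All of Cps1, Ass1, Pck1 and Fbp1 were at their lowest in WT 1. Tat was the most variable of the 5, with 8.82, 14.5, 20.4 and 20.7 in WT and 31.1, 39.1, 6.53 and 10.9 in KO, and was the only one to be lowest in KO 3.

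The pericentral genes had narrower ranges, apart from the 2 with few counts. Cyp3a11, the main drug-metabolising P450 of its family, had 58.2, 46.9, 41.4 and 42.6 counts per 1000 Alb counts in WT 1 to 4 against 41.6, 42.8, 51.6 and 29.4 in KO 1 to 4. Rgn had 9.18, 12.1, 9.28 and 13.4 in WT and 7.60, 13.0, 7.88 and 6.70 in KO. They ranged 1.98-fold (Cyp3a11) and 1.99-fold (Rgn), and both overlapped between genotypes. Cyp2e1, which oxidises ethanol, ran from 20.3 to 45.8, and its 2 lowest values were in WT 2 and WT 3. Cyp2c29 had 2.97 to 9.60 and Cyp1a2 0.597 to 4.66 per 1000 Alb counts, with as few as 7 and 5 counts in a library, which limits what their order can show. Cyp2c29 and Cyp3a11 have near-identical neighbours, so their counts are uncertain as well.

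The mean log2 CPM of the periportal members minus that of the pericentral members was -0.14, 0.99, 2.07 and 1.11 in WT 1 to 4 against 1.72, 1.58, 0.53 and 1.10 in KO 1 to 4. By this measure WT 1 was the only library below 0, and WT 3 had the highest value. Each gene has the same weight in it, and Cyp1a2 had only 13 counts (0.80 CPM) in WT 3, which raises the value there. In summed counts KO 2 (2.85 periportal counts per pericentral count) and KO 1 (2.52) lay above WT 3 (2.16), and WT 1 was again lowest (0.66). That order depended on Ass1. Without Ass1, WT 3 was highest (1.48), above KO 2 (1.19) and KO 1 (1.06), and WT 1 stayed lowest (0.33). The genotypes overlapped in the log2 measure, at 1.01 ± 0.91 in WT and 1.23 ± 0.54 in KO (SD, n = 4). Their difference of 0.23 was smaller than either SD, and its sign depended on WT 1, without which it was -0.16. With the longer lists of 12 other periportal and 15 other pericentral genes it was -0.18.

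**Figure D4:**
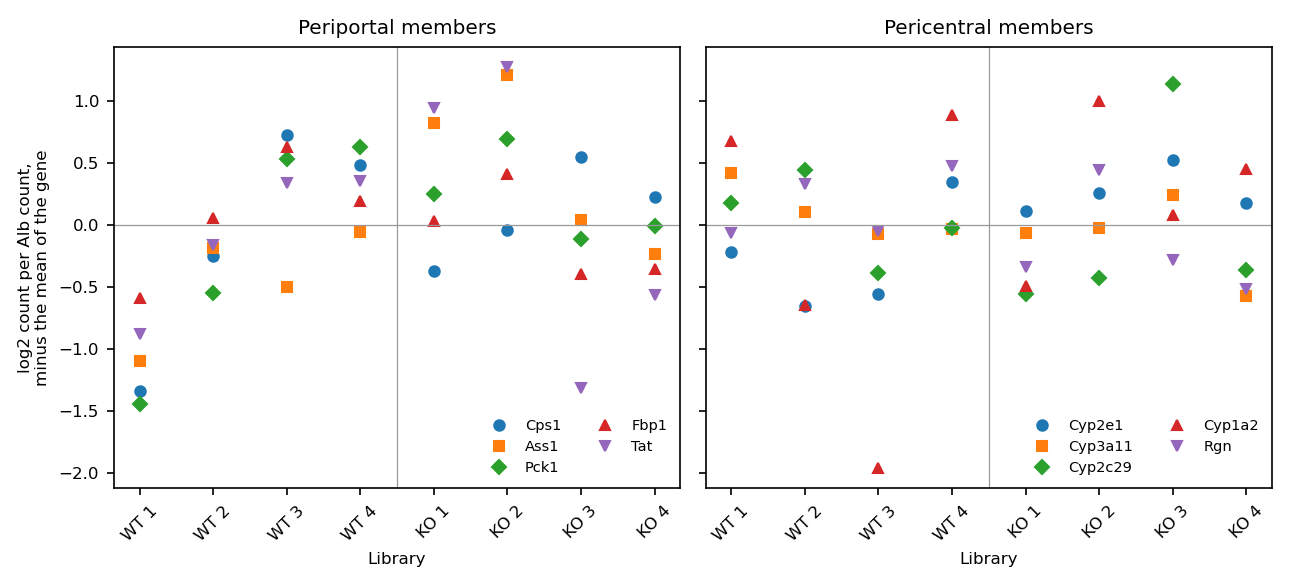
The log2 ratio of each zonation gene to Alb minus the mean of that gene, for the periportal members (left) and the pericentral members (right) in each of the 8 libraries. The periportal genes sit low in WT 1 and scatter in KO, and most pericentral genes stay near 0 except Cyp1a2, which has 0.597 counts per 1000 Alb counts in WT 3.

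KO was then compared with WT in level. In edgeR's quasi-likelihood test over all 15870 genes, 0 of the 40 members were called lower or higher, where 0.0063% of all tested genes were called lower (Vsig4 alone) and 0.0% higher. The lowest adjusted p among members was 0.49, 3 members (Trf, Fbp1 and Rgn) had lower levels at an unadjusted p under 0.05, where 4.56% of all genes did (and 4.23% were higher), and DESeq2 (0.227% of all genes lower and 0.189% higher) and limma also called 0. All 40 had a lower value in KO, where 50.4% of all tested genes did and 49.6% had a higher one. The median log2 fold change was -0.64, against -0.0028 for all tested genes, and the range ran from -1.64 for Fbp1 to -0.04 for Apoa1. Because the members moved together from library to library, 40 lower values are not 40 separate observations.

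That direction rested largely on WT 3. Without WT 3 the median was -0.018 and 21 of the 40 members had lower values. Leaving out any other library kept the median between -0.97 and -0.40, with 38 to 40 lower values. Without WT 3 the log2 fold change of Alb was -0.34 in place of -1.07 ± 0.61 (SE), and that of Apoa1 was 0.70 in place of -0.04 ± 0.71. For Cps1 it was 0.10 in place of -1.18 ± 0.91 and for Mup3 0.44 in place of -0.22 ± 0.52.

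The level of 2 members, Trf and Rgn, did not overlap between genotypes, both lower in KO, where 2.85% of all tested genes had KO below and 2.71% above WT. Rgn had 3.70, 3.65, 12.5 and 5.40 CPM in WT 1 to 4 against 1.28, 1.43, 3.54 and 2.99 CPM in KO 1 to 4, a log2 fold change of -1.45 ± 0.51 (SE; edgeR adjusted p = 0.49). The gap between the groups was narrow, since KO 3 lay just below WT 2. Trf had a log2 fold change of -0.68 ± 0.26 (SE; edgeR adjusted p = 0.49), and without WT 3 it was -0.76. The 15 Kupffer markers other than Vsig4, the deleted gene, were all at lower values in KO too (median -0.57). So were 10 of the 11 sinusoidal endothelial markers (median -0.66), and the part of either list in the Trf difference was not tested.

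Fbp1 had 2.35, 2.75, 18.3 and 4.05 CPM in WT 1 to 4 against 1.503, 1.28, 2.99 and 3.04 CPM in KO 1 to 4. WT 3 stood alone at the top, and KO 3 and KO 4 lay within the range of the other WT libraries. Its log2 fold change was -1.64 ± 0.71 (SE; edgeR adjusted p = 0.49) with WT 3 and -0.48 without it.

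The libraries of the 2 genotypes carry the numbers 1 to 4, and values of libraries with the same number deviated together, so a fit with the number as a block was made as well. It called 5 members lower in KO, Alb (-1.05 ± 0.27, SE; edgeR adjusted p = 0.044), Trf (-0.68 ± 0.15; adjusted p = 0.030), F2 (-1.001 ± 0.24; adjusted p = 0.037), Cyp3a11 (-1.24 ± 0.22; adjusted p = 0.025) and Rgn (-1.39 ± 0.24; adjusted p = 0.025), and 0 higher. The background in that fit was 5.01% of all tested genes lower and 8.98% higher. The pairing was read from the same values that this fit then tested, and not from the labels. These calls hold only if it is right. Within numbers, 33, 39, 39 and 14 of the 40 members were lower in KO in numbers 1, 2, 3 and 4. Only 8 were lower in all 4 numbers, where 19.6% of all tested genes were, a share near that of the members.

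**Figure D5:**
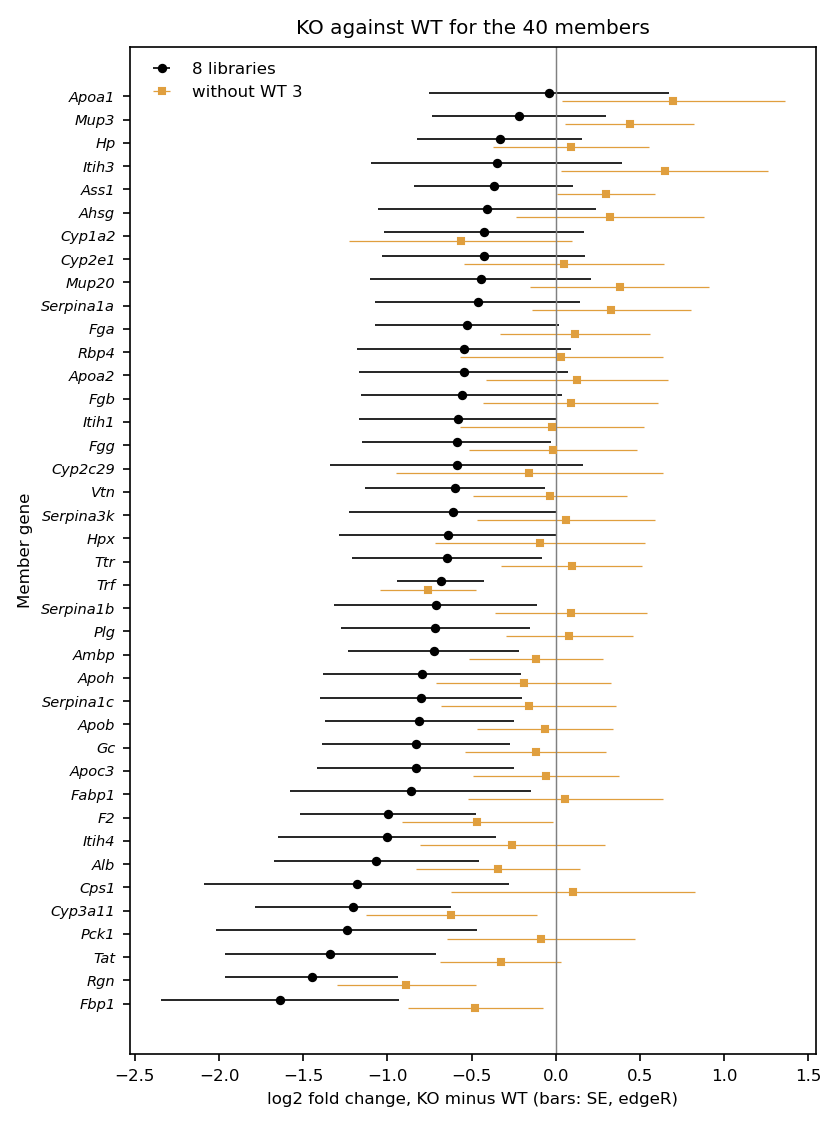
Log2 fold change of each of the 40 members, KO minus WT, with its SE (horizontal axis, log2 units), and the value without WT 3 beside it, in the fit without a block. With all libraries every value lies below 0, with a median of -0.64, and without WT 3 the values lie on both sides of 0, with 21 of 40 below it.

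Most other lists of hepatocyte genes had more lower than higher values in KO. Of 28 tested other liver plasma proteins, 25 had lower values in KO (median -0.61), as had 21 of 22 other enzymes and transporters (-1.10) and 10 of 11 other periportal genes (-0.92). Of 12 tested other pericentral genes 7 did (-0.46), and of 7 acute phase genes 4 (-0.17). The male-biased liver genes went the other way, with 5 of 6 at higher values (0.57). Without WT 3 the medians were 0.014 for the plasma proteins (12 of 28 lower), -0.35 for the enzymes and transporters (16 of 22), 0.11 for the periportal genes (4 of 11), -0.42 for the pericentral genes (7 of 12), 0.33 for the acute phase genes (1 of 7) and 0.69 for the male-biased genes (0 of 6). The edgeR fit without a block called 0 genes of these lists, where 0.0063% of all tested genes were called lower. With the block it called Hpd, Bhmt, Slc10a1, Pigr and Slc1a2 lower, where 5.01% of all tested genes were called lower. It called Oat, ornithine aminotransferase, and Mup7 of the male-biased genes higher, where 8.98% of all tested genes were. Of 11 hepatocyte transcription factors 5 had enough counts to be tested and 4 of these had lower values (median -0.36; without WT 3, 3 of 5 and -0.42). Hnf4a, a master regulator of hepatocyte genes, had 1.28, 2.13, 11.01 and 3.15 CPM in WT 1 to 4 against 0.890, 0.919, 1.77 and 1.52 CPM in KO 1 to 4. WT 3 was again far above the rest, and Hnf4a was called lower with the block (-1.43 ± 0.39, SE; edgeR adjusted p = 0.048).

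Some genes of these lists did not have the library order of Alb. Glul, glutamine synthetase, a marker of the innermost pericentral cells, stood at 643 to 884 CPM in WT and 288 to 821 CPM in KO, and Oat had 146 to 239 CPM in WT and 180 to 417 CPM in KO. Glul was highest in WT 1 and Oat in KO 3, and neither was lowest in KO 2, unlike Alb. Of 7 pericentral genes of that list with a mean count of at least 20, 2 were narrower against Alb than in CPM, against 10 of 11 periportal and 23 of 25 plasma protein genes.

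Acute phase genes, which the liver raises in inflammation, were present at low levels. The 8 genes summed to 21.9, 39.2, 30.1 and 52.0 counts per 1000 Alb counts in WT 1 to 4 against 71.7, 68.0, 34.8 and 70.5 in KO 1 to 4. KO 3 was the only KO library within the WT range, as for Fga. Saa1, serum amyloid A, had 0.882, 2.79, 2.25 and 8.11 in WT and 9.91, 5.12, 2.96 and 10.8 in KO. KO 4 was highest and WT 1 lowest for Saa1, Hpx and Fgb alike. Orm1, orosomucoid, was closer to Alb, at 7.41 to 13.99 in WT and 13.9 to 21.4 in KO.

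The hepatocyte genes with male-biased transcription included a gene set apart by genotype. Mup7, a further major urinary protein, had 5.41, 7.92, 21.9 and 5.14 CPM in WT 1 to 4 against 53.7, 16.3, 59.1 and 49.4 CPM in KO 1 to 4. There were 0.146, 0.274, 0.191 and 0.140 Mup7 counts per Mup3 count in WT and 1.40, 0.821, 0.871 and 0.813 in KO, so the genotypes were far apart, while Mup20 had 0.368 to 0.485 counts per Mup3 count in WT and 0.198 to 0.629 in KO. Per Alb count Mup7 was higher in KO by 3.37 ± 0.79 on the log2 scale (SE; edgeR adjusted p = 0.040), but its level in CPM was not called (2.14 ± 0.57, SE; edgeR adjusted p = 0.49) except with the block (2.22 ± 0.40; adjusted p = 0.025). The value was 2.43 per Apoa1 count and 2.80 per summed count of the members without Alb and Trf, and the call was lost with both references. With the summed members without Alb but with Trf as reference it was kept (2.86, edgeR adjusted p = 0.0033), as it was per Alb count with the block (3.29, adjusted p = 1.7e-05). It was also lost without WT 1 (3.27, edgeR adjusted p = 0.378), without WT 2 (3.65, adjusted p = 0.185) and without KO 1 (2.93, adjusted p = 0.324). Cyp2d9 and Mup7 were the 2 of the 6 tested male-biased genes for which all KO libraries lay above WT per Alb count. Of all tested genes 14.1% did. Of the 9 female-biased genes 0 had enough counts to be tested. The Y-linked genes Ddx3y and Eif2s3y were at 75.7 to 257 and 47.9 to 121 CPM in the 8 libraries, and Xist had at most 6 counts.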

How the data were processed

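The authors deposited 1 table with raw counts per gene and FPKM for each library, per the file headers. HTSeq 0.6.1 and mm10 are named in the submitters' processing notes. Not given in the sources used here are the aligner, the annotation and whether counting used strand. The deposited FPKM matched count divided by exonic size and column total within 0.015 for 100% of values. The authors also deposited gene positions and exonic sizes (other numbers). Of 52073 identifiers shared with GENCODE M21 only 1472 had the same position, so positions are given as deposited, without a build. Column letters C and K were read as WT and KO, and 0 columns were unmapped.

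filterByExpr left 15870 of 56691 genes, and TMM gave the library scaling. The main fit was the 2-sided quasi-likelihood F test of edgeR 4.0.16 (R 4.3.3) for KO against WT. Its p-values were adjusted by Benjamini-Hochberg over the whole table, and calls needed an adjusted value under 0.05. The biological coefficient of variation was 33.3%. A second fit used log Alb counts as the offset. Ratios to Alb used raw counts. DESeq2 1.42.0, limma 3.58.1 on log2(FPKM + 1), a melanoma marker covariate, other references, other filters and leaving out each library were alternatives. Exact permutation tests planned for the summed members and the zonation difference are not given, because members and lists were chosen with earlier results of these data known. For the same reason no list has a test of its own.

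The text names Alb, the 5 members highest in FPKM, the 10 zonation genes, the 4 most and 4 least constant against Alb and the 3 with the smallest p in each direction, and other members by their ranges. The rule takes from each other list up to 3 called genes or the 2 most expressed, of which only those a result turns on are named. Genes called with the block, Saa1, F12, Serpina1d and Slc27a5 were chosen after their values were seen.

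Libraries of both genotypes are numbered 1 to 4. Same-numbered libraries deviated together from their genotype means, with correlations of 0.614, 0.616, 0.700 and 0.326, all above 0.1, so the numbers were taken as pairs. This pairing rests on the values alone, the same values that the fit with the block tests. Correlations between libraries of unlike number were not compared, so it is not shown that same-numbered libraries agree better. Replicates differed by more than sampling noise (chi-square per degree of freedom at least 10.8). A count of 0 allows up to 3 counts. The test was tried on simulated data with 15573 genes: it recovered 41% of 2-fold and 84% of 4-fold changes, and 1 of 126 calls was false.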

Additional observations from a re-analysis of the deposited data

Results flagged for a closer look

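Of 86 sets of 4 libraries examined, 9 held a library far from the others by a gap test (gap to the nearest library over the whole range), and 7 of the 9 were WT 3. Chance flags about 1 in 20 sets, and the members move together, so these are not 9 separate events. In WT, library WT 3 stood apart in the summed level of the 39 members without Trf (3530 CPM), in Alb (1348 CPM), in Mup3 (115 CPM), in Gc (114 CPM), in Mup20 (55.7 CPM), in Fbp1 (18.3 CPM) and in Cyp2c29 (4.52 CPM). Per Alb count, none of the other 5 genes stood apart in WT 3 by this test. In KO, library KO 3 stood apart in Cyp2c29 (9.60 counts per 1000 Alb counts) and library KO 2 in F2 (27.9 counts per 1000 Alb counts). Cyp2c29 had few counts, and KO 2 had the fewest Alb counts, 2148.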

How the results depend on the processing

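All settings changed 1 choice at a time, and those without Trf, without Alb and Trf, the member counts under each fit and the other lists without WT 3 were chosen after seeing the data. The comparison of KO with WT called 1 gene of all, 2 without a filter on low counts, 66 with DESeq2 and 1 to 2 with 1 library left out. With the replicate block it called 2220, and the members called went from 0 to 5. Apart from the member calls given in the report, the block changed no call on a member. The median log2 fold change of the members, -0.64, ran from -0.97 to -0.018 with 1 library left out and was -0.018 without WT 3. With the mean log2 CPM of the melanoma markers as a covariate it was -1.38, the lowest of all settings, and 0 members were called. Of 300 values for 20 named members, 286 kept direction and call, 5 gained a call with the block and 9 changed sign, all on leaving out a library. Without WT 3 the value was above 0 for Mup3 (range over the left-out libraries -0.45 to 0.44), Apoa1 (-0.39 to 0.70), Cps1 (-1.65 to 0.10), Ass1 (-0.62 to 0.30), Cyp2e1 (-0.84 to 0.050) and Mup20 (-0.81 to 0.38). Apoa1 was 0.19 without KO 1 and 0.26 without KO 2, and Mup3 was 0.016 without KO 2.

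Per Alb count, 8 genes of all were called, 24 without a filter, 2857 with the replicate block, 3 with Apoa1 as reference, 4 and 5 with the summed other members without Alb and without Alb and Trf, and 4 to 253 with 1 library left out (253 without WT 4). The members' median of 0.41 was -0.49 with Apoa1 and -0.10 with the summed members without Alb and Trf, and 0.34 to 0.53 with 1 library left out. The mean log2 sum of the members differed by -0.68 between genotypes (-0.82 to -0.44 with 1 library left out), and by 0.0022 per Kupffer marker count. The zonation difference of 0.23 was -0.18 with the other lists and ran from -0.16 to 0.58 with 1 library left out. The median SD of the ratio to Alb, 0.40, was 0.51 with Apoa1, 0.61 with the summed other members and 0.28 with that sum without Trf as reference. The cause of these changes was not tested. Depth limits Cyp1a2 and Cyp2c29 most.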
